A study of Mus musculus with 6 samples.

Results

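The mitochondrial ribosomal protein genes were the 78 genes of 55335 in the count table whose symbol is Mrpl or Mrps followed by a number and at most 1 letter. Of these, 49 carry the large subunit prefix Mrpl and 29 the small subunit prefix Mrps. They were taken by name and not by their values, though with earlier results of these data known. RNA was sequenced from the aorta of 3 mice at 6 weeks of age (young) and 3 mice at 6 months (aged), with 1 library per mouse. All animals were untreated wild-type mice of the strain spelled c57b6l in the labels, and the methods describe them as male C57BL/6. According to the methods the vessels were freed of surrounding fat before freezing. Each library holds RNA of several cell types of the vessel, and for every gene fewer cells of a type and less RNA per cell cannot be told apart.

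Mitochondria carry their own ribosome, which translates the few messages of the mitochondrial genome, all of them subunits of the respiratory chain and the ATP synthase. Its RNAs come from that genome, but each of its proteins is encoded in the nucleus, made in the cytosol and imported. The small subunit binds and decodes the message, and the large subunit forms the peptide bond and passes the new chain to the inner membrane. Some of these proteins descend from bacterial ribosomal proteins, and others are found only in mitochondrial ribosomes.

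Counts summed to between 31049632 and 45832185 per library, of which the 78 genes took 46397 to 89441. The library labelled young replicate 1 stood apart. It held Xist, the RNA that silences an X chromosome in female cells, at 305.6 CPM (CPM, counts expressed relative to the library size, with a TMM correction for composition), against at most 0.636 CPM in the other libraries, and the Y-linked gene Ddx3y at 1.09 against 44.8 to 65.6 CPM. Both values differ from the male sex stated in the methods, so sex may be mixed within the young group. The 5 cardiomyocyte markers of young replicate 1 summed to 316 CPM, against 44.8 to 62.1 elsewhere. Aged replicate 2 held 1965 CPM of 5 brown adipocyte markers, with at most 620 in the other libraries, and aged replicate 3 held 1563 CPM of 5 endothelial markers, with at most 461 elsewhere. All 6 smooth muscle markers were detected, at a summed 27333 to 39324 CPM, and their log2 differences of aged over young aorta were all below 0, with a median of -0.19 and 2 at an unadjusted p under 0.05. The macrophage markers (6 rows, since Itgam is listed under 2 identifiers) summed to 28.7 to 31.1 CPM in young and 45.9 to 97.1 in aged libraries, with all 6 log2 differences above 0, a median of 1.39 and 5 at an unadjusted p under 0.05. Of 5 fibroblast markers 4 were above 0, with a median of 1.31 and 2 at an unadjusted p under 0.05, and their sums overlapped, at 4083 to 5319 CPM in young and 2803 to 8397 in aged libraries. None of these markers had an adjusted p under 0.05 (edgeR). Results are therefore also given without single libraries.

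No mitochondrial ribosomal protein gene differed between young and aged aorta past the threshold. All 78 passed the filter on low counts, and 0 had an adjusted p under 0.05 by edgeR's quasi-likelihood test, where 0% of the 16612 genes tested did. The lowest adjusted p among the 78 was 0.469 (edgeR, Mrps33), and over all genes it was 0.189. At an unadjusted p under 0.05 there was 1 of the 78, where 10.4% of all genes tested passed. It was higher in aged aorta, as were 5.56% of all genes tested, while 4.82% were lower. DESeq2 called 338 of the 14955 genes to which it gave an adjusted p, or 2.26%, and 0 of the 78. By DESeq2 1 of the 78 had an unadjusted p under 0.05, where 11.9% of all genes did.

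The fitted differences were small and mostly of 1 sign on the TMM scale. The log2 difference of aged over young aorta was above 0 for 64 of the 78 genes with TMM scaling, against 52.1% of all genes tested, but for only 26 of the 78 when limma was run on log2(FPKM + 1). FPKM is the count divided by gene length and by all reads of the library, those from the mitochondrial genome included. The median log2 difference was 0.17 with TMM, where all genes tested had 0.02, and -0.05 on the FPKM scale, where all genes had -0.12. Of the 78 genes, 62 lay above the median of all genes with TMM and 55 with log2(FPKM + 1). The median of the 78 genes was split by subunit prefix on the TMM scale. It was 0.17 for the 49 Mrpl genes and 0.16 for the 29 Mrps genes. The range ran from -0.30 for Mrpl1 to 0.56 for Mrps21. The 95% interval of the difference lay inside a change of 1 on the log2 scale in either direction for 71 of the 78 genes, or 91.0%, while this held for 8298 of all 16612 genes tested. The 7 others were Mrpl17, Mrpl32, Mrpl53, Mrps2, Mrps21, Mrps27 and Mrps33. All genes tested were not matched to the family for level here. The median half-width of the interval was 0.48 for the 78 genes and 0.67 for all genes tested. The share inside a change of 1 was 93.8% for cytosolic ribosomal protein genes and 63.2% for nuclear genes of oxidative phosphorylation.

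**Figure D1:**
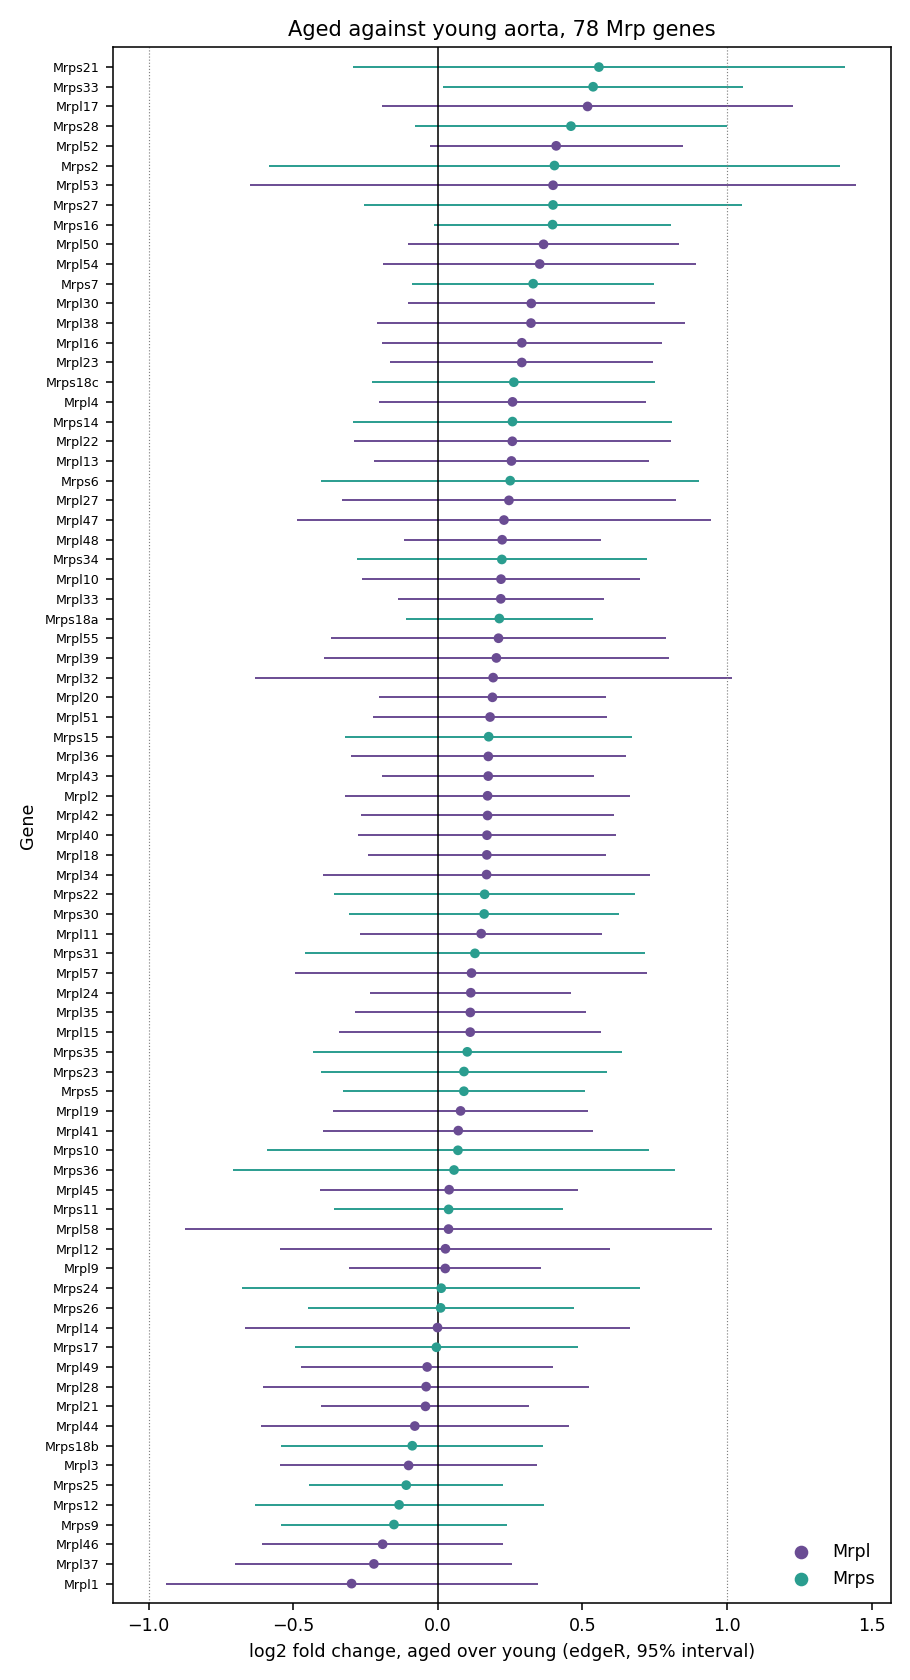
Fitted log2 difference of aged over young aorta for each of the 78 genes, with TMM scaling; points are edgeR estimates, bars are 95% intervals, colours mark Mrpl and Mrps genes, and dotted lines mark a change of 1 in either direction. Points lie above 0 for 64 of 78 genes, and no gene passed the adjusted threshold. With log2(FPKM + 1) 26 of 78 lay above 0, where the median of all genes was -0.12 and 55 of the 78 lay above that median.

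The spread between genes was narrow. Of the 78 log2 differences, 75 lay within 0.5 of 0, or 96.2%, and so did 80.9% of the 10106 tested genes in the same range of mean level, which was 3.41 to 81.0 CPM. The interquartile range of the log2 differences was 0.22 for the 78 genes and 0.46 for those 10106 genes, of which 50% were above 0. It was narrower still for cytosolic ribosomal protein genes, at 0.136, and for nuclear genes of oxidative phosphorylation, at 0.185. The median coefficient of variation between mice was 14.2% in young and 17.3% in aged aorta for the 78 genes, and 15.9% and 18.8% for the genes of like level. Thus the replicates of these genes varied about as much as those of other genes, while their age differences covered a smaller range. A narrow range was not particular to this family.

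Summed over all 78 genes, the level differed between libraries of 1 age as much as between ages. The young libraries held 1846, 1766 and 1507 TMM CPM in replicates 1 to 3. The aged libraries held 2010, 2061 and 1642 TMM CPM. Young replicate 3 was the lowest, aged replicates 1 and 2 were above every young library, and aged replicate 3 lay among the young ones. The means were 1706 ± 178 (SD, n = 3) and 1905 ± 229 (SD, n = 3) TMM CPM, a ratio of 1.12, and the groups overlapped. On the FPKM scale the same sums were 841, 798 and 677 in young and 840, 822 and 616 in aged aorta, a ratio of 0.984. The share of all counts that fell on the mitochondrial genome was 14.9% to 21.2% in young and 23.1% to 30.4% in aged libraries. The direction of the summed level therefore turned with the scaling, and on neither scale did the groups separate.

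**Figure D2:**
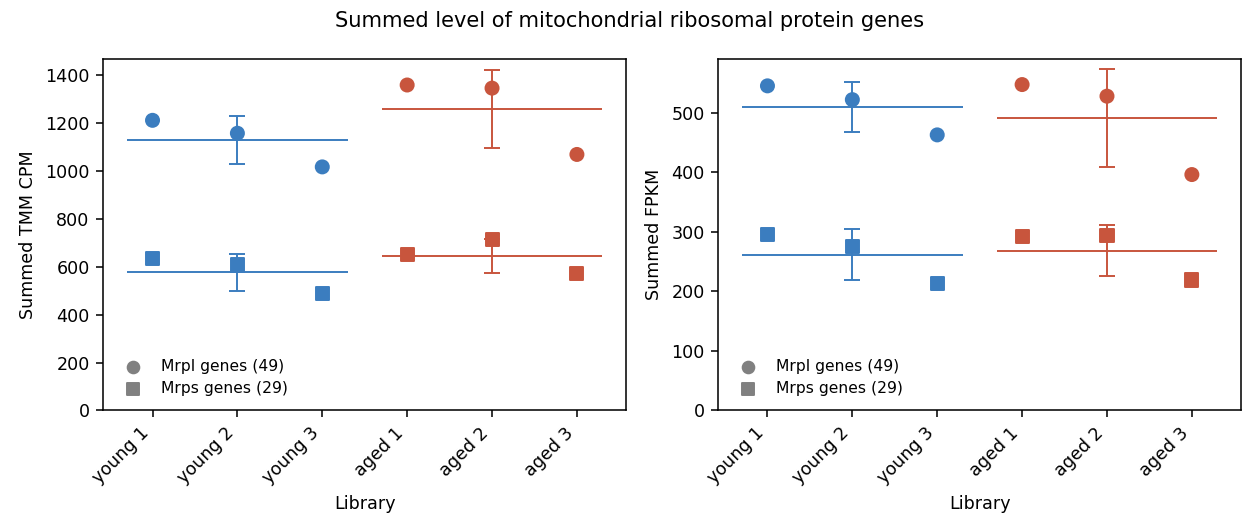
Summed level of the 49 Mrpl genes (circles) and the 29 Mrps genes (squares) in each library, as TMM CPM on the left and FPKM on the right; lines are group means and bars are SDs over 3 libraries. The aged mean for all 78 genes is 1.12 times the young mean in TMM CPM and 0.984 times it in FPKM, and the groups overlap on both scales.

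The ratio of summed Mrpl to summed Mrps RNA was similar in all libraries. The sums go by symbol, so Mrps18a, Mrps30 and Mrps36 count as Mrps genes here. Summed Mrpl over summed Mrps level in TMM CPM was 1.91, 1.91 and 2.08 in young and 2.09, 1.89 and 1.87 in aged libraries. The groups overlapped, with means of 1.97 ± 0.10 and 1.95 ± 0.12 (SD, n = 3). In FPKM the ratio was 1.85, 1.89 and 2.17 in young and 1.87, 1.80 and 1.81 in aged libraries. Those groups overlapped too, with means of 1.97 ± 0.17 and 1.83 ± 0.04 (SD, n = 3). Counted gene by gene in TMM CPM, aged replicate 2 was the highest library for 33 of the 78 genes and aged replicate 1 for 27, and aged replicate 3 was the highest for 0. Young replicate 3 was the lowest library for 41 genes and aged replicate 3 for 19. The median deviation of the 78 genes from their own means, on the log2 scale, was 0.05, -0.03 and -0.24 in young replicates 1 to 3 and 0.16, 0.19 and -0.11 in aged replicates 1 to 3. The lowest of the 6 was thus a young library, and the lowest aged library lay below the other 2 young ones.

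**Figure D3:**
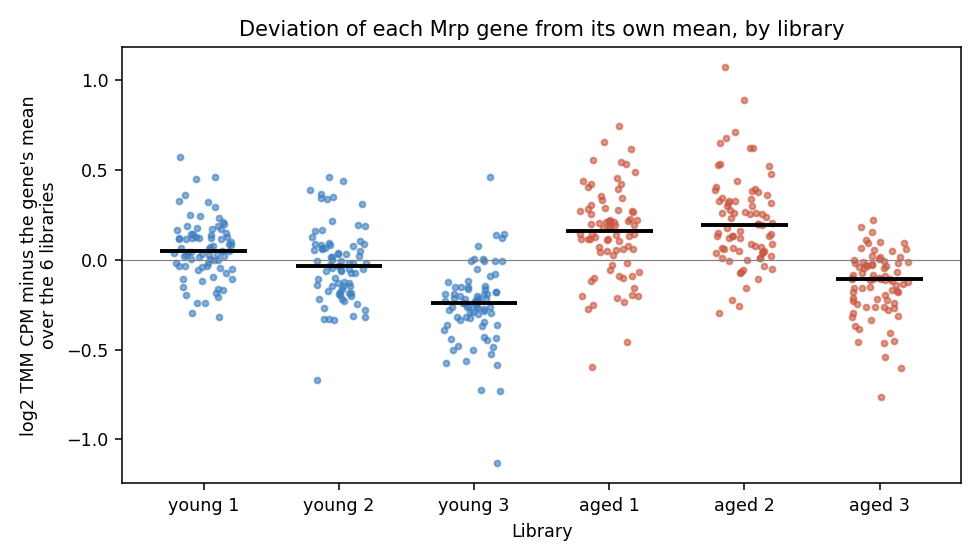
Deviation of each of the 78 genes from its mean over the 6 libraries, in log2 TMM CPM, by library; each point is a gene and the bars are medians. The medians run from -0.24 in young replicate 3 to 0.19 in aged replicate 2, and aged replicate 3 has -0.11.

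The size of the shift depended on single libraries. Without young replicate 1 the median log2 difference of the 78 genes was 0.23, with 64 above 0. It fell by more than 1.5 times without young replicate 3, to 0.08 with 52 above 0, and without aged replicate 2, to 0.08 with 51 above 0. It was 0.26 with 66 above 0 when aged replicate 3 was left out. Aged replicate 2 had the most brown adipocyte marker RNA and aged replicate 3 the most endothelial marker RNA, while the macrophage markers summed higher in every aged than in every young library. The part of these cells in the result was not tested. In all 6 of these refits 0 of the 78 genes had an adjusted p under 0.05 (edgeR).

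In 5 of the 78 genes every aged library was above every young one in TMM CPM, and in 0 every aged library was below, where 7.74% and 8.78% of all genes tested did so. The 5 genes were Mrps33, Mrps16, Mrpl52, Mrps28 and Mrps18a. Their share, close to the background of separated genes, is no result about the family. The start regions of 4 of them are shown, since these are the genes with the most separate groups, together with those of Mrpl22 and Mrpl58, chosen as examples of motif matches after the values were seen. Each line gives 120 bases upstream of the annotated first exon, from RefSeq, on the GRCm38.p6 build and in the direction of transcription. Capitals mark matches, in either orientation, to GGGCGG (GC box), CCGGAAG (bound by ETS factors such as GABP), AAGATGG (YY1) and GCATGC (core of the NRF1 site).
Mrps33: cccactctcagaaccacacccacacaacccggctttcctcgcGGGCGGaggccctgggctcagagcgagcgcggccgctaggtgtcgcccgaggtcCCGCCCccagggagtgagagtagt
Mrps16: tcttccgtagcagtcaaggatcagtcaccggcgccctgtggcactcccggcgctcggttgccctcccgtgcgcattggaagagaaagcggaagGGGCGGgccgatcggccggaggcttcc
Mrpl52: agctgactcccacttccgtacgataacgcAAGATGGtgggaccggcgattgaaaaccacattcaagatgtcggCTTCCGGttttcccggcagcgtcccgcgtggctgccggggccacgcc
Mrps18a: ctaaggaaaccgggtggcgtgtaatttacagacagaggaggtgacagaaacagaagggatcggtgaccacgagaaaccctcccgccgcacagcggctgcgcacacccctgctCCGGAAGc
Mrpl22: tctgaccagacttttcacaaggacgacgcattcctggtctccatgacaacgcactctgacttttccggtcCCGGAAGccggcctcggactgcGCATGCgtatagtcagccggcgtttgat
Mrpl58: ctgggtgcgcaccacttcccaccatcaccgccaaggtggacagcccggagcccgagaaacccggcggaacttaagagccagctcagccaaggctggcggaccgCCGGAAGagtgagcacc

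The stretches lie at chr6:39810989-39811108 on the minus strand for Mrps33, at chr14:20393635-20393754 on the minus strand for Mrps16, and at chr14:54426789-54426908 on the plus strand for Mrpl52. Those of Mrps18a, Mrpl22 and Mrpl58 are on plus strands, at chr17:46110866-46110985, chr11:58171541-58171660 and chr11:115403632-115403751. In Mrpl52 the ETS match began 47 bases before the RefSeq start and the YY1 match 91 bases before it. In Mrpl22, whose protein lines the exit tunnel of the large subunit, the ETS match began 53 bases and the NRF1 match 31 bases before the start. The printed stretches of Mrps33 and Mrps16 held GC boxes only, and Mrps33 had an ETS match beyond its stretch, after the RefSeq start. A match is a description of letters and not a measured binding site.

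Mrps33 lies on chromosome 6 from 39801804 to 39810988 in GENCODE M21 (GRCm38), Mrps16 on chromosome 14 from 20389304 to 20393634 and Mrpl52 on chromosome 14 from 54426909 to 54429756. Mrps28 lies on chromosome 3 from 8802146 to 8923918 and Mrps18a on chromosome 17 from 46110986 to 46128910. No exon of another gene overlaps these 5 genes.

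Mrps33, a protein of the small subunit without a bacterial counterpart, was at 10.2, 8.10 and 7.28 TMM CPM in young replicates 1 to 3 and at 12.3, 14.2 and 10.7 in the aged ones. The groups did not overlap, although the highest young and the lowest aged library were close. The log2 difference was 0.54 ± 0.22 (SE), with an unadjusted p of 0.0444 and an adjusted p of 0.469 (edgeR). It stayed between 0.43 and 0.69 when single libraries were left out, and the lowest value came without aged replicate 2. On the log2(FPKM + 1) scale it was 0.28.

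Mrps16, a small subunit protein with a bacterial counterpart, was at 17.1, 15.3 and 14.8 TMM CPM in young and at 22.7, 22.2 and 17.4 in aged aorta. Aged replicate 3 lay just above the highest young library. The log2 difference was 0.40 ± 0.18 (SE, adjusted p = 0.496 by edgeR). Mrpl52, a large subunit protein particular to mitochondria, was at 17.5, 14.1 and 14.4 TMM CPM in young and at 23.5, 17.7 and 19.9 in aged aorta. Here aged replicate 2 was the nearest to the young group, and the log2 difference was 0.41 ± 0.19 (SE, adjusted p = 0.506 by edgeR).

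Mrps28, also of the small subunit, was at 12, 9.80 and 8.77 TMM CPM in young and at 17.4, 12.1 and 12.6 in aged aorta. Aged replicate 2 and young replicate 1 were almost level, and the log2 difference was 0.46 ± 0.23 (SE, adjusted p = 0.533 by edgeR). Without aged replicate 1, its highest library, it was 0.28. Mrps18a had the tightest groups, at 23.7, 22.7 and 21.5 TMM CPM in young and 26.7, 26.6 and 25.3 in aged aorta, with a log2 difference of 0.21 ± 0.14 (SE, adjusted p = 0.614 by edgeR). On the FPKM scale the young mean was 5.98 ± 0.160 and the aged mean 5.96 ± 0.370 (SD, n = 3), so that the difference of this gene was above 0 with TMM scaling and not on the FPKM scale.

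The largest fitted difference belonged to Mrps21, a small subunit protein with a bacterial counterpart, and it was among the least precise. Its level was 54.6, 36.6 and 19.4 TMM CPM in young and 65.2, 54.4 and 43.0 in aged aorta. The groups overlapped, and young replicate 3 was far below the others. The log2 difference was 0.56 ± 0.36 (SE, adjusted p = 0.617 by edgeR), with a 95% interval from -0.29 to 1.41. It was 0.26 without young replicate 3 and 0.96 without young replicate 1.

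Mrpl17, of the large subunit, was at 24.7, 32 and 17.2 TMM CPM in young and at 44.8, 37.3 and 23.7 in aged aorta, and its groups overlapped. Its log2 difference of 0.52 ± 0.30 (SE) had an adjusted p of 0.582 (edgeR), and it was 0.31 without aged replicate 1, 0.32 without young replicate 3 and 0.76 without young replicate 2. Mrps7, which sits in the head of the small subunit, Mrpl50 and Mrpl30 completed the 8 members with the smallest p on the higher side. Their log2 differences were 0.33, 0.37 and 0.32, with adjusted p from 0.557 to 0.571 (edgeR). Without aged replicate 2 they were 0.21, 0.17 and 0.25. In Mrpl50 the young libraries were within 20.5 to 21.1 TMM CPM, and aged replicate 3, at 20.9, lay among them.

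On the lower side no gene came near the threshold. Mrpl1, a protein of the mobile stalk beside the tRNA exit, was at 13.9, 11.6 and 12.3 TMM CPM in young and at 12, 12.1 and 6.55 in aged aorta. Only aged replicate 3 lay below the young range. The log2 difference was -0.30 ± 0.27 (SE, adjusted p = 0.714 by edgeR), and without aged replicate 3 it was -0.06. Mrpl37 had a log2 difference of -0.22, Mrpl46 of -0.19, Mrps9 of -0.15 and Mrps12, which takes part in decoding, of -0.13. Mrps25, Mrpl3 and Mrps18b had -0.11, -0.10 and -0.09. Most of these values rested on single libraries. Without young replicate 2 Mrpl37 had -0.0602, Mrps9 -0.0147, Mrps12 0.0911, Mrpl3 0.0864 and Mrps18b 0.00931. Without aged replicate 2 Mrpl37 had -0.39, Mrpl46 -0.13 and Mrps18b -0.26, and without aged replicate 1 Mrps25 had -0.0351. Among all 14 genes below 0, none had an unadjusted p under 0.05 on the TMM scale. On the log2(FPKM + 1) scale Mrpl46 alone had one, with a log2 difference of -0.37 and an adjusted p of 0.283 by limma. In that fit 16.1% of all genes had one.

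Proteins at special places of the ribosome showed no common direction past their errors. The stalk that recruits translation factors is built with Mrpl10, Mrpl11 and Mrpl12. Their log2 differences were 0.22 ± 0.20, 0.15 ± 0.18 and 0.03 ± 0.24 (SE) on the TMM scale, and on the log2(FPKM + 1) scale those of Mrpl11 and Mrpl12 were -0.06 and -0.18. Without young replicate 3 Mrpl10 had 0.0592, and without aged replicate 1 Mrpl11 had 0.0482. Mrpl45, which lies near the inner membrane, had 0.04 ± 0.19 (SE) on the TMM scale.

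Mrpl58, a peptidyl-tRNA hydrolase that became a ribosomal protein, split the libraries in another way. It was at 22.5, 12.1 and 12.9 TMM CPM in young and at 25.3, 12.4 and 11.1 in aged aorta, so that replicate 1 of each age was well above the other libraries. Its log2 difference was 0.04 ± 0.39 (SE, adjusted p = 0.980 by edgeR). An antisense gene, Ict1os, overlaps its exons, and since no strand setting is stated its reads cannot be told apart. Mrps2, named after its values were seen, reached 29.7 TMM CPM in aged replicate 2, with 9.36 to 14.7 elsewhere.

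Of the 3 relatives of bacterial S18, Mrps18c and Mrps18b are in the small subunit and Mrps18a, despite its name, is in the large one. The log2 differences on the TMM scale were 0.21 ± 0.14 for Mrps18a, -0.09 ± 0.19 for Mrps18b and 0.26 ± 0.21 for Mrps18c (SE). The adjusted p were 0.614, 0.888 and 0.672 (edgeR), and Mrps18c had 0.0911 without aged replicate 1. Mrps30, also a large subunit protein under a small subunit name, had 0.16 ± 0.20 (SE), and -0.0248 without aged replicate 2. Mrps36, now known as a subunit of the 2-oxoglutarate dehydrogenase complex, was at 14.1, 14.8 and 10.8 TMM CPM in young and 10.9, 20.8 and 9.48 in aged aorta. Its log2 difference was 0.06 ± 0.33 (SE), its groups overlapped fully, and its reads may be shared with pseudogene copies.

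Levels within the family spanned a wide range. Mean FPKM over the 6 libraries ran from 1.34 for Mrps10 to 55.1 for Mrps21, with a median of 8.01. After Mrps21, the highest FPKM were those of Mrpl24 (32.5), Mrpl34 (24.2) and Mrpl18 (23.3), and among Mrps genes those of Mrps15 (16.9) and Mrps23 (16.3). The order depended on the gene length used. TMM CPM per kilobase of the principal GENCODE transcript gave 105 for Mrpl33 and 93.3 for Mrps21 as the top values and 2.61 for Mrpl57 as the lowest. Over the 78 genes, Spearman's rho between both scales was 0.775, a description across genes that share the same counts. The length implied by the FPKM was over 1.5 times that of the principal transcript for 40 of the 78 genes. Mrpl33 ranked 47 of 78 by FPKM and 1 by principal transcript, since its FPKM imply a length of 8091 bases and the transcript has 478.

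Many of these genes are short, and short genes in general had log2 differences above 0 on the TMM scale. Of the 25 members whose principal transcript is under 1000 bases, 23 had a log2 difference above 0, with a median of 0.22. The 461 tested protein-coding genes of that length and the same range of level, members included, had a median of 0.21. Of these 461 genes 81.6% were above 0. The 28 members of 1 to 2 kilobases had a median of 0.12, against 0.10 over all 1872 such genes. Above 0 were 20 of these 28 members and 63.1% of the 1872 genes. Above 2000 bases the medians were 0.12 for 25 members, of which 21 were above 0, and -0.05 for 7149 genes. Of these 7149 genes 44.0% were above 0. Spearman's rho of the log2 difference with transcript length was -0.25 over the 78 members and -0.21 over 9482 genes, which share libraries and scaling. The medians of members and of all genes were therefore nearly the same in the shorter classes and apart in the longest one. What part length has in the result was not tested.

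Other genes of mitochondrial translation had differences of either sign. The 5 mitochondrial ribosomal proteins without an Mrp symbol (Dap3, Ptcd3, Chchd1, Aurkaip1 and Gadd45gip1) all had log2 differences above 0 on the TMM scale, with a median of 0.32. Gadd45gip1, a large subunit protein, was at 20.3, 18.8 and 18.3 TMM CPM in young and at 25.7, 23.2 and 23.8 in aged aorta, without overlap (log2 difference 0.34 ± 0.15, unadjusted p = 0.0488, adjusted p = 0.477 by edgeR). Dap3, a GTP-binding small subunit protein, was at 38.4, 37.4 and 34.6 TMM CPM in young and at 44.1, 43.5 and 41.4 in aged aorta, also without overlap (adjusted p = 0.589 by edgeR). The 4 others than Gadd45gip1 had an unadjusted p above the threshold.

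Of 27 assembly factors of the mitochondrial ribosome, 11 were above 0 and the median was -0.08 on the TMM scale, with 0 at an unadjusted p under 0.05. Fastkd2, an RNA-binding protein needed for the large subunit, had -0.36 ± 0.24, and Dhx30, a helicase of the mitochondrial RNA granule, had -0.20 ± 0.13 (SE). Of 15 translation factors, 10 were above 0, with a median of 0.08 and 0 at an unadjusted p under 0.05. Tufm, the elongation factor that brings the tRNA, had 0.42 ± 0.26, and Mtfmt, which formylates the initiator tRNA, had -0.44 ± 0.24 (SE). Of 17 mitochondrial tRNA synthetases 8 were above 0, with a median of -0.06. One of them, Tars2, was at 30.6, 33.1 and 28.0 TMM CPM in young and 22.5, 26.0 and 23.3 in aged aorta (unadjusted p = 0.0455, adjusted p = 0.472 by edgeR).

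The 10 genes of mitochondrial transcription and DNA upkeep had a median of -0.01, with 5 above 0. Polrmt, the mitochondrial RNA polymerase, had -0.37 ± 0.18 (SE) and Tfam, which packs and helps transcribe mitochondrial DNA, 0.02 ± 0.17 (SE). The 10 regulators of nuclear genes for mitochondria had a median of -0.07, with 4 above 0. Pprc1, a coactivator of the PGC-1 family, was at 16.4, 29.8 and 36.0 TMM CPM in young and 12.2, 16.9 and 20.3 in aged aorta, with overlap (log2 difference -0.73 ± 0.32, adjusted p = 0.497 by edgeR). Gabpa, the DNA-binding subunit of GABP, had -0.06 ± 0.15, Nrf1 -0.49 ± 0.30 and Yy1 -0.23 ± 0.14 (SE). None of these 10 regulators had an unadjusted p under 0.05.

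The messages that these ribosomes translate had larger differences in RNA, and their protein products were not measured. The 13 protein genes of the mitochondrial genome had a median log2 difference of 0.83 on the TMM scale, and all were above 0. Of them 12 had an unadjusted p under 0.05, against 10.4% of all genes tested, although the lowest adjusted p was 0.376 (edgeR). Their log2 differences had an interquartile range of 0.089 and share libraries and scaling, so the 12 are not separate results. These genes are part of the mitochondrial share of counts given above. The ribosomal RNAs, mt-Rnr1 and mt-Rnr2, had log2 differences of 0.59 and 0.57. The mt-Rnr1 level was 1072, 1273 and 1040 TMM CPM in young and 1481, 1594 and 2028 in aged aorta, without overlap. Aged replicate 3, which held the most mt-Rnr1, had the lowest summed level of ribosomal protein genes among the aged libraries. The 76 nuclear genes of oxidative phosphorylation had a median of 0.28, with 72 above 0 and 2 at an unadjusted p under 0.05. Their summed level per library, 6464, 6504 and 4534 TMM CPM in young and 6772, 9927 and 4867 in aged aorta, had its lowest value in young replicate 3 and its highest in aged replicate 2, as did that of the 78 genes. The cytosolic ribosomal protein genes, of which 81 of 85 passed the filter, had a median of 0.33, with 79 above 0 and 5 at an unadjusted p under 0.05. In all these lists 0 genes had an adjusted p under 0.05 (edgeR).

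**Figure D4:**
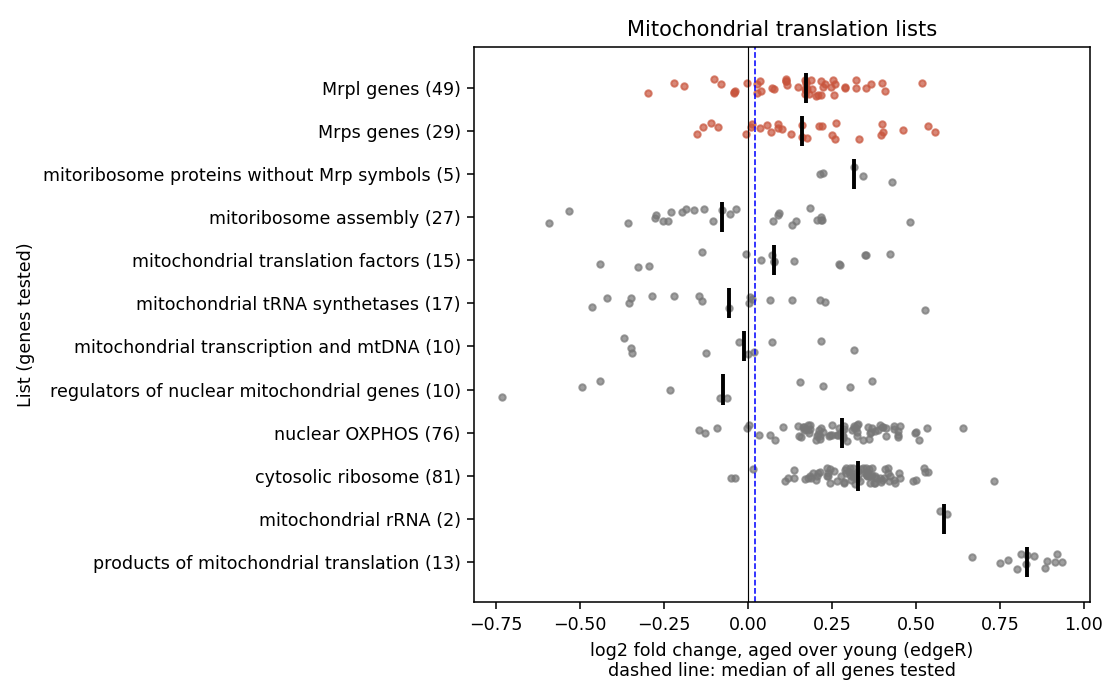
Fitted log2 differences of aged over young aorta, on the TMM scale, for the Mrpl and Mrps genes and for lists of related genes; each point is a gene, black bars are medians, and numbers in parentheses are genes tested. Medians run from -0.08 for assembly factors to 0.83 for messages of the mitochondrial genome, labelled products of mitochondrial translation. Mrpl and Mrps genes have 0.17 and 0.16, and their medians turned below 0 with log2(FPKM + 1). In that fit the median of all genes also fell, from 0.02 to -0.12, and the other lists are given on the TMM scale only.

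In the genome the 78 genes lay on 17 chromosomes, and all were found in GENCODE M21. Many start close to the start of a gene on the other strand. A protein-coding gene on the other strand started within 1000 bases in 28 of the 78, or 35.9%, against 12.8% of the 13902 tested protein-coding genes with a start. In Mrpl13, Mrpl21, Mrpl27, Mrpl47, Mrps7 and Mrps30 the starts of the pair overlap, and in the others they lie apart. Mrpl46 and Mrps11, a large and a small subunit gene, are such a pair, with 30 bases between their starts. Each of them counts among the 28. Other partners also work in mitochondria. Mrpl43 faces Twnk, the helicase of mitochondrial DNA, Mrps12 faces Sars2, the mitochondrial seryl-tRNA synthetase, and Mrpl47 faces Ndufb5, a subunit of complex I.

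Signs were mixed among members and their divergent partners. Of the 25 divergent partners tested, 10 had a log2 difference above 0 on the TMM scale, their median was -0.13, and 11 had the sign of the member. Mrpl46 had -0.19 and Mrps11 0.04. Mrpl30 had 0.32, while its partner Mitd1 was at 9.23, 6.52 and 9.79 TMM CPM in young and at 6.05, 5.22 and 4.78 in aged aorta, a log2 difference of -0.67 (unadjusted p = 0.0284, adjusted p = 0.437 by edgeR). That was the only partner with an unadjusted p under 0.05. In 33 of the 78 genes exons overlap those of another gene, on the opposite strand in 28 and on the same strand in 8. Reads there cannot be told apart, and among the genes with values above this touches Mrpl3, Mrpl10, Mrpl12, Mrpl18, Mrpl24, Mrpl33, Mrpl46, Mrpl58, Mrps7, Mrps11, Mrps18b, Mrps18c, Mrps25 and Mrps30.

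Promoters of the family, read in RefSeq from 250 bases before to 50 after the start, were available for 69 of the 78 genes. Mrpl13, Mrpl15, Mrpl19, Mrpl38, Mrpl4, Mrpl54, Mrps28, Mrps34 and Mrps35 had no entry. The ETS motif CCGGAAG, on either strand, was in 25 of the 69, or 36.2%, against 17.5% of the promoters of tested genes and 12.4% of all promoters. The YY1 motif AAGATGG was in 18.8%, against 6.99% and 6.42%. The core GCATGC of NRF1 was in 13%, against 9.73% and 8.33%. The E-box CACGTG was in 7.25%, against 9.89% and 8.09%, and the GC box GGGCGG in 47.8%, against 63.8% and 48.5%. Of the 25 promoters with an ETS match, 21 held one from 60 bases before the start onward, or 84.0%, against 66.8% of the tested genes' promoters with a match. Matches of different motifs shared a base in 1 promoter of the family. Both subunits had ETS matches, in 15 of 43 Mrpl and 10 of 26 Mrps promoters.

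**Figure D5:**
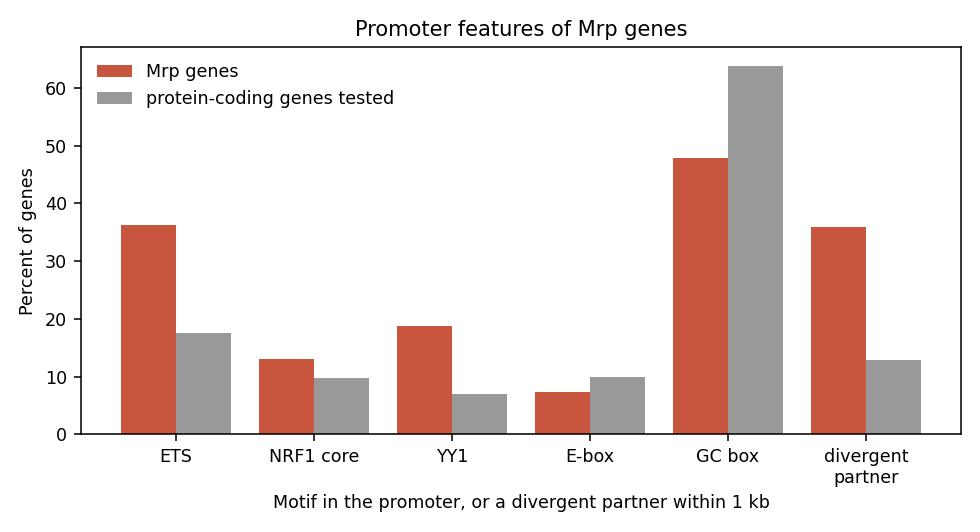
Percent of promoters with a match to each of 5 motifs, and percent of genes with a divergent protein-coding partner within 1000 bases, for the mitochondrial ribosomal protein genes (69 promoters, 78 genes) and for tested protein-coding genes. ETS matches are in 36.2% against 17.5%, YY1 matches in 18.8% against 6.99%, and GC boxes in 47.8% against 63.8%, given as shares without a test.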

How the data were processed

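The 6 aorta libraries came from 3 young and 3 aged mice. Reads per gene were counted by the authors, and the deposited counts are whole numbers without normalization, 31049632 to 45832185 per library. The deposited FPKM were made by the authors from the same reads. Submitters' processing notes name the mm10 build. The aligner, annotation and strand setting are not given in the sources used here.

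Counts were filtered (filterByExpr by group, minimum count of 10, minimum total count of 15), scaled by TMM and given to the quasi-likelihood fit of edgeR 4.0.16 (R 4.3.3), without covariates, over all 16612 genes that passed. Benjamini-Hochberg adjustment ran over every tested gene, and 0.05 was the threshold. The fit was tested on simulated data with changes larger than any of this family, so that test does not cover differences as small as these. Positions came from GENCODE M21 (GRCm38), matched by Ensembl identifier. As alternatives, DESeq2 1.42.0 and limma 3.58.1 were run, the latter on log2 of the FPKM plus 1 or 0.1. The edgeR fit was repeated with RLE size factors, without a filter, with 10 counts required in each library, with a replicate block, robustly, with library sizes lacking mitochondrial genes, and without each library in turn.

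Genes named are the 3 highest by FPKM of each subunit, the 8 with the smallest p in each direction, the extremes of log2 difference, and members with a special role. Those whose groups do not overlap, Mrps2, the lowest levels, and partners were named after their values were seen. The members and gene lists were chosen with earlier results of these data known. The p values set the difference between groups against the spread between single libraries of separate mice, estimated with the help of all genes tested.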

Additional observations from a re-analysis of the deposited data

How the results depend on the processing

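No alternative gave a mitochondrial ribosomal protein gene an adjusted p under 0.05. Over all genes, the calls went from 0 to 338 with DESeq2, and they lay between 0 and 110 when single libraries were left out, the 110 without aged replicate 2. Of the 78 genes 1 had an unadjusted p under 0.05, where 10.4% of all genes tested had one. With no filter on low counts, where more genes were tested, the number was 0, against 7.29% of all genes. It was between 0 and 6 when single libraries were left out, against 6.13% to 13.8% of all genes. The 6 came without aged replicate 3, where 7.13% of all genes had one. With the replicate number as a block, 4 of the 78 had one (Mrpl17, Mrpl52, Mrps21 and Mrps33), where 10.7% of all genes did. The median log2 difference with this block was 0.16, and 0 of all genes were called. In that fit 4 of the 78 genes changed sign, among them the named Mrpl58 (-0.0045) and Mrps36 (-0.020). Deviations of same-numbered libraries from their group means correlated weakly, by 0.0786, 0.117 and 0.0957. Each of the 6 libraries correlated best across ages with its own number. These are not 6 separate matches, since each correlation counts for both of its libraries. At most this is a weak hint from the data, since nothing in the labels pairs the mice, and pairing was not tested.

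The median log2 difference kept its sign with RLE, DESeq2, the other filters, the robust fit and library sizes without mitochondrial genes. It turned on the FPKM scale, to -0.0516 for all 78, -0.0510 for the 49 Mrpl and -0.0527 for the 29 Mrps genes with a pseudocount of 1, and to -0.0608, -0.0574 and -0.0772 with 0.1. The summed level turned from a log2 ratio of 0.16 to -0.0238. Members above the median of all genes numbered 62 with TMM, 55 with log2(FPKM + 1) and 61 with log2(FPKM + 0.1). The sign turned in 38 of the 78 genes with either pseudocount. Named genes above 0 that turned with a pseudocount of 1 were Mrpl24 (-0.11), Mrpl34 (-0.0707), Mrpl18 (-0.0547), Mrps15 (-0.0351), Mrps23 (-0.10), Mrps18a (-0.0052), Mrps30 (-0.0504), Mrpl12 (-0.18), Mrpl11 (-0.0589), Mrpl58 (-0.17), Mrpl45 (-0.16) and Mrps36 (-0.21). With 0.1 they were Mrpl24 (-0.11), Mrpl34 (-0.0749), Mrpl18 (-0.0572), Mrps15 (-0.0372), Mrps23 (-0.10), Mrps18a (-0.0062), Mrps30 (-0.0725), Mrpl12 (-0.19), Mrpl11 (-0.0702), Mrpl58 (-0.22), Mrpl45 (-0.18) and Mrps36 (-0.24).

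When single libraries were left out, the median stayed between 0.08 and 0.26. The sign turned in 4 to 19 of the 78 genes per refit, with the most without aged replicate 2. Among the genes named by rule, those that turned were Mrpl12 (-0.12 to 0.23), Mrpl45 (-0.0693 to 0.16), Mrpl58 (-0.44 to 0.39), Mrps36 (-0.37 to 0.26), Mrps23 (-0.0277 to 0.33), Mrps30 (-0.0248 to 0.26), Mrpl3 (-0.23 to 0.0864), Mrps12 (-0.23 to 0.0911) and Mrps18b (-0.26 to 0.00931). With 3 mice per group, 7 of the 78 genes kept an interval that reaches a change of 1 on the log2 scale.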

Other observations

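Rows of 5 pseudogenes of this family carry the suffix ps and were not counted among the 78. Mrpl23-ps1 had 196 to 367 counts per library, Mrpl48-ps 19 to 49, Mrps36-ps1 18 to 63 and Mrps36-ps2 5 to 13, and Mrps36-ps3 had 0 in all 6 libraries. Reads of Mrpl23, Mrpl48 and Mrps36 may be shared with these copies, so their values are uncertain to that extent. Aged replicates 1 and 2, which had the highest summed levels of the 78 genes, differed in which genes were higher. Of the 78, 43 were higher in aged replicate 2 than in aged replicate 1, and the log2 difference between both libraries had a Spearman's rho of 0.351 with transcript length over the 78 genes and 0.210 over 9482 genes of the same range of level.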
